A study of Mus musculus with 8 samples.

Results

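The cytotoxic effector genes are the transcripts with which killer lymphocytes carry out their function. The set holds 9 of the 33696 genes in the matrices and was found by gene symbol: the granzymes Gzma (ENSMUSG00000023132), Gzmb (ENSMUSG00000015437), Gzmk (ENSMUSG00000042385) and Gzmm (ENSMUSG00000054206), and Prf1 (ENSMUSG00000037202), Nkg7 (ENSMUSG00000004612), Fasl (ENSMUSG00000000817), Ifng (ENSMUSG00000055170) and Ctsw (ENSMUSG00000024910). All 9 were present and detected. They were followed in 11409 lymphocytes out of 39632 cells kept from brain tumours, placed in 6 classes by rules on other genes. CD8 T cells (5543) had Cd3e with Cd8a or Cd8b1. Treg cells (880) had Cd3e and Foxp3. Other CD4 T cells (1888) had Cd3e and Cd4 without Foxp3, Cd8a or Cd8b1. γδ T cells (769) had Cd3e and Trdc. NK cells (826) lacked Cd3e and had Ncr1 or Klrb1c. Innate lymphoid cells (ILCs, 1503) lacked Cd3e and had Il7r with Gata3 or Rora. Another 193 cells met several definitions and were set aside. None of the 9 genes takes part in these rules.

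Killer lymphocytes store perforin and granzymes in secretory granules and release them onto a target cell. Perforin opens the target membrane and granzymes, a family of serine proteases, enter and cleave proteins that start cell death. A second route uses Fas ligand on the killer cell, which engages the Fas death receptor. Interferon-γ, a secreted cytokine, acts on tumour and myeloid cells at a distance, where it raises antigen presentation. NK cells and CD8 T cells are the lymphocytes best known for all of these outputs.

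The mice carried the ZFTA-RELA fusion (genotype NestinCreERT2;Fus1;RFPTdT), which is recombined in Nestin-expressing neural progenitors and gives ependymoma, a brain tumour of childhood. The allele also carries luciferase, and both groups share it. Randomisation took place when the animals were 3 weeks old, to 1 intrathecal dose of vehicle IgG or of mavrilimumab, an antibody against the GM-CSF receptor alpha chain, at 5 mg/kg. They were followed to a humane endpoint, and the tissue is labelled as coming from mice of 6 to 8 weeks. The paper describes the sequenced cells as CD45-positive cells from outside the vessels of the tumour tissue, taken at recurrence. The time from dose to sampling is not given per library, so it may differ between the groups. Cells from the tumours were stained for CD45 and Ter119 and sorted. They were captured by droplet 5′ single-cell RNA sequencing with T cell receptor (TCR) sequencing, in 2 expression libraries per group. Libraries pool tumours, and the labels do not give the animals behind each, so p-values measure the spread between these libraries. No untreated or tumour-free library belongs to the series.

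The libraries differed in depth and make-up. Cells kept numbered 984 and 26746 in vehicle IgG 1 and 2 and 6412 and 5490 in mavrilimumab 1 and 2. Total unique molecular identifiers (UMIs, 1 per captured molecule) ran from 24354457 to 148657643 per library, and the lymphocytes from 220 in vehicle IgG 1 to 4207 in mavrilimumab 1. A library entered a class only with at least 20 cells, so vehicle IgG 1 (14 Treg cells, 5 NK cells and 15 ILCs) is missing from 3 classes. The sample names inside the TCR files name the other treatment in 3 of 3 files. The TCR file titled mavrilimumab 1 shares 2491 of its 2749 cell barcodes with the expression library titled mavrilimumab 2 and 2 with its own namesake, and that titled mavrilimumab 2 shares 4867 of 5659 with mavrilimumab 1 and 6 with its namesake. Directions here follow the labels of the expression libraries, and receptors were joined by shared barcodes. A TCR file for vehicle IgG 2 was not analysed here. Pairs of expression libraries shared 0 to 60 cell barcodes. Levels are given in CPM, the UMIs of a gene over all UMIs of a class in a library, times 1000000. NK markers (Eomes, Klre1, Klra4, Klra8, Klri2, Tyrobp and Fcer1g) summed to 4371 to 6866 CPM in NK cells. Fcer1g alone was at 1936 to 2863 CPM there. The ILC class held its own markers at 1946 and 2293 CPM in vehicle IgG 2 and mavrilimumab 2. In mavrilimumab 1 its 40 cells had 333 CPM of ILC markers and 6087 CPM of B cell markers, which goes against the label. Neural markers summed to 873 to 1324 CPM in every class of vehicle IgG 2 and to at most 14.9 CPM elsewhere.

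The promoters below show the regulatory sequence in front of Gzma, Gzmb, Gzmk and Prf1. Gzma and Prf1 were higher in NK than in CD8 T cells and Gzmk lower, while the ranges of Gzmb overlapped. RefSeq entries on GRCm38.p6 were found for 8 of 9 members (9 start sites), and each sequence is the 250 bases before the start, read 5′ to 3′ on the gene's strand. Capitals mark matches on either strand to a RUNX motif (TGTGGT), a T-box motif (AGGTGT), an AP-1 motif (TGANTCA) or a TATA box (TATAAA). The regions are chr13:113100982-113101231 (minus strand) for Gzma, chr14:56262335-56262584 (minus) for Gzmb, chr13:113180966-113181215 (minus) for Gzmk and chr10:61297586-61297835 (plus) for Prf1.
Gzma: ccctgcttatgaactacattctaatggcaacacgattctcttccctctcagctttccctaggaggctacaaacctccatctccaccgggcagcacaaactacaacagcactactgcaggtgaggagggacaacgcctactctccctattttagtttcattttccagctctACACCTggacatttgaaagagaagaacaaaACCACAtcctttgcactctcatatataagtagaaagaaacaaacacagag
Gzmb: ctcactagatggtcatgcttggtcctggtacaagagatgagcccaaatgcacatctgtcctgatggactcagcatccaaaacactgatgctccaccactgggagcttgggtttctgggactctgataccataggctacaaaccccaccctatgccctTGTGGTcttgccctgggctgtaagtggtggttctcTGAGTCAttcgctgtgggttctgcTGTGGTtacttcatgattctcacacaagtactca
Gzmk: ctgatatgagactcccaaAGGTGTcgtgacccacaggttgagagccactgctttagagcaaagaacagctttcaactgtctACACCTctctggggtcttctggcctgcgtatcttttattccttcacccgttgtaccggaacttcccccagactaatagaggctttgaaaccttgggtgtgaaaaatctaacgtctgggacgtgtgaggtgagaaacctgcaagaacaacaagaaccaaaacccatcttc
Prf1: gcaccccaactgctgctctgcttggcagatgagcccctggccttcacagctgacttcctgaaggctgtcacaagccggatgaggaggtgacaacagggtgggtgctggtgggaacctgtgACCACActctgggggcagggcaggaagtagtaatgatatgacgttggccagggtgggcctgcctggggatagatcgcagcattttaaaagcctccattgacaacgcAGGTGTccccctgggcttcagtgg
Gzma holds a RUNX match 50 bases and a T-box match 80 bases before its start, both on the opposite strand. Gzmb holds RUNX matches at 93 and 34 bases with an AP-1 match between them at 58 bases. Gzmk holds T-box matches at 232 and 169 bases and no RUNX match, and Prf1 a RUNX match at 130 and a T-box match at 24 bases. These motifs are common: of 32851 promoters of this length, 14.05% hold the RUNX, 11.8% the T-box, 6.75% the AP-1 and 12.4% the TATA letters. A match is a description of the letters and no evidence of binding.

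Gzma, a tryptase, was highest in NK cells. It stood at 2578, 1680.5 and 5817 CPM in NK cells of vehicle IgG 2, mavrilimumab 1 and mavrilimumab 2. In CD8 T cells it was at 23.1 and 319 CPM in vehicle IgG 1 and 2, against 114 and 308 CPM in mavrilimumab 1 and 2. The lowest NK library lay above the highest CD8 library, while CD8 and γδ T cells overlapped. In γδ T cells 0 UMIs were found in vehicle IgG 1, which allows up to 6.16 CPM, and 41.8, 144 and 339.6 CPM in vehicle IgG 2, mavrilimumab 1 and mavrilimumab 2, with 49.5% to 74.1% of the UMIs in 1 cell of each. Other CD4 T cells had 13.1 to 85.8 CPM and Treg cells 0 to 24.6 CPM. The 108 CPM of ILCs in vehicle IgG 2 came from 28 of 1394 cells, of which 1 cell gave 40.5% of the UMIs.

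Gzmb, the aspartase that activates caspases, was broader. It was at 1917, 1153 and 3989 CPM in the NK libraries in the same order. In CD8 T cells it was at 278 and 988 CPM in vehicle IgG 1 and 2, against 494 and 2198 CPM in mavrilimumab 1 and 2, so CD8 and NK ranges overlapped. Treg cells had 235, 97.8 and 407 CPM in vehicle IgG 2, mavrilimumab 1 and mavrilimumab 2, from 3, 74 and 31 cells with a UMI. Empty droplets held Gzmb at 60.6, 254 and 894 CPM in these libraries. The microglial gene C1qa stood in Treg cells at 0%, 48.4% and 23.1% of its level in those droplets, and the part of free RNA in the Treg values was not tested. γδ T cells ranged from 72.8 to 1335 CPM and other CD4 T cells from 5.72 to 108 CPM. The 264 CPM of ILCs in mavrilimumab 2 came from 7 of 54 cells, with 65.7% of the UMIs in 1 cell.

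Gzmk, a tryptase linked to memory-like CD8 T cells, ran the other way. It was at 159.8 and 92.5 CPM in CD8 T cells of vehicle IgG 1 and 2, against 439 and 92.7 CPM in mavrilimumab 1 and 2. In NK cells it stood at 4.85, 8.24 and 2.49 CPM, from 7, 1 and 12 UMIs. The lowest CD8 library was more than 10 times the highest NK library, a ratio that rests on the 1 UMI of mavrilimumab 1. Other CD4 T cells had 27.7, 9.81, 165 and 33.0 CPM across vehicle IgG 1 and 2 and mavrilimumab 1 and 2, so mavrilimumab 1 reached into the range of CD8 T cells. In that library empty droplets held Gzmk at 245 CPM, and C1qa in other CD4 T cells was at 45.8% of its level in those droplets. The part of free RNA in this overlap was not tested. In γδ T cells 3 libraries had 0 or 1 UMI, and the 20.8 CPM of mavrilimumab 1 rested on 24 UMIs, 70.8% of them in 1 cell. Gzmm, a lesser known granzyme, was scarce everywhere, at 5.88 to 27.1 CPM in CD8 T cells and at most 9.81 CPM in the other classes.

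**Figure D1:**
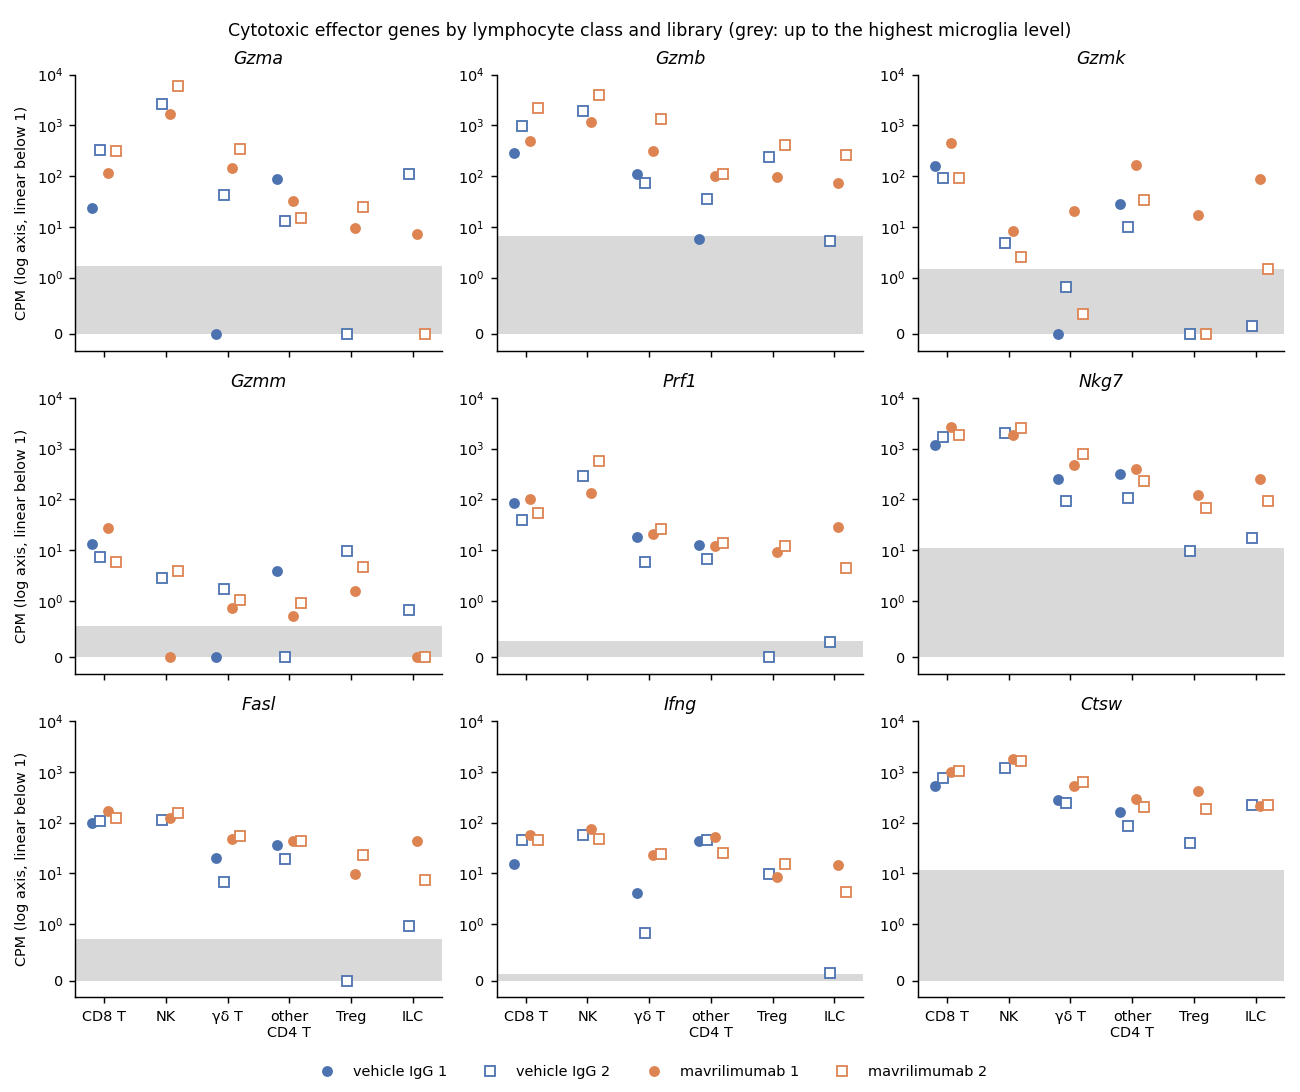
CPM of each of the 9 genes (vertical log axis, linear below 1) in the 6 lymphocyte classes (horizontal axis), 1 point per library with at least 20 cells, and a grey band up to the highest microglia library. Gzma and Prf1 stand highest in NK cells, Gzmk in CD8 T cells, and Nkg7 and Fasl overlap between both.

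Prf1, perforin, was highest in NK cells at 288, 132 and 562 CPM. CD8 T cells had 83.4 and 38.4 CPM in vehicle IgG 1 and 2 and 99.8 and 55.1 CPM in mavrilimumab 1 and 2. The order NK, CD8 T and γδ T cells held with no overlap between neighbours, since γδ T cells reached 25.7 CPM at most. Nkg7, a granule membrane protein needed for release, had overlapping levels in NK cells (1845 to 2503 CPM) and CD8 T cells (1153 to 2614 CPM). It was at 93.7 to 766 CPM in γδ T cells, 108 to 399 CPM in other CD4 T cells and 9.81 to 122 CPM in Treg cells. Ctsw, a papain-like protease of killer cells, was at 1179.9 to 1788 CPM in NK cells and 519.6 to 1024 CPM in CD8 T cells, with no overlap between them. ILCs had 224, 217 and 227 CPM in vehicle IgG 2, mavrilimumab 1 and mavrilimumab 2, below the 564 and 412 CPM of the empty droplets in the latter pair.

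Fasl, the death ligand, was at 114 to 156 CPM in NK cells and 101 to 166 CPM in CD8 T cells, and no other class exceeded 54.7 CPM. Ifng levels of CD8 and other CD4 T cells overlapped. It was at 15.1 and 45.5 CPM in CD8 T cells of vehicle IgG 1 and 2, against 58.4 and 45.0 CPM in mavrilimumab 1 and 2. Other CD4 T cells had 42.9, 45.8, 51.2 and 25.3 CPM in that order of libraries, and NK cells 47.4 to 74.1 CPM. γδ T cells had 0.837 to 24.3 CPM, below every NK and other CD4 T cell library. In microglia, which should lack the set, no member exceeded 11.7 CPM, and in neural or tumour cells none exceeded 5.76 CPM. Together the 9 genes made up 0.680% to 1.48% of all NK cell UMIs and 0.235% to 0.572% of CD8 T cell UMIs.

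The mix of the 4 member granzymes differed between classes and varied among CD8 libraries. A UMI counts a molecule whatever its length, so the shares below are shares of molecules. They leave out Gzmc, which is no member and was at 3263 to 9710 CPM in NK cells, with a mean of 7197 CPM against 3358 CPM for Gzma. In NK cells Gzma took 57.3%, 59.1% and 59.3% of the UMIs of the 4 granzymes in the 3 libraries and Gzmb 42.6%, 40.6% and 40.7%, a split that moved by 2 points although the Gzma level differed more than 3-fold. In CD8 T cells Gzmb took 58.7%, 70.2%, 46.0% and 84.4% in vehicle IgG 1 and 2 and mavrilimumab 1 and 2. Gzmk took 33.7%, 6.58%, 40.9% and 3.56%. The Gzmk share was thus high in vehicle IgG 1 and mavrilimumab 1 and low in the other library of each treatment. In other CD4 T cells Gzmk took 22.5%, 16.7%, 55.6% and 21.0%, again highest in mavrilimumab 1.

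**Figure D2:**
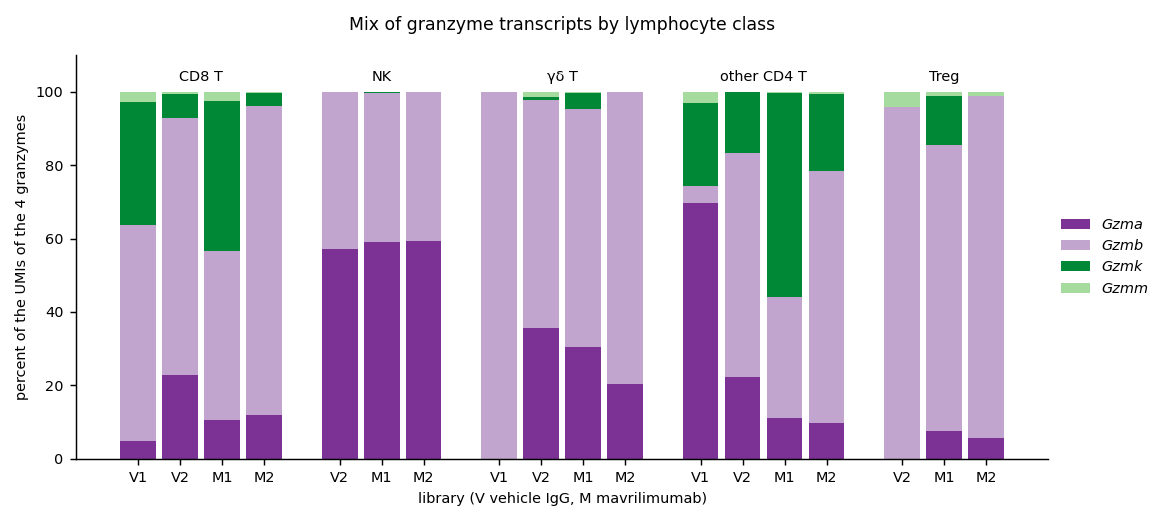
Percent of the UMIs of the 4 granzymes that each takes (stacked bars, vertical axis) by library (V vehicle IgG, M mavrilimumab) and class. The 3 NK bars are alike at 57.3% to 59.3% Gzma, whereas the Gzmk part of CD8 T cells ranges from 3.56% to 40.9%.

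Within CD8 T cells the members differed in how many cells carried them. To compare libraries each cell was thinned to 1000 UMIs. A Nkg7 UMI was then found in 61.8%, 74.1%, 86.4% and 69.2% of CD8 T cells in vehicle IgG 1 and 2 and mavrilimumab 1 and 2, and a Gzma UMI in 1.47%, 5.22%, 3.87% and 5.53%. Microglia at the same depth had any given member in at most 1.11% of cells, so the low Gzma share of vehicle IgG 1 is near background. In 3 libraries Gzma and Gzmk were both found more often in CD8 T cells with a Gzmb UMI than in those without. With Gzmb, 12.04%, 8.98% and 10.8% of cells had Gzma in vehicle IgG 2, mavrilimumab 1 and mavrilimumab 2, against 2.40%, 2.39% and 1.94% without. For Gzmk the shares were 12.04%, 38.5% and 11.1% against 6.81%, 30.7% and 5.26%. The exact binomial 95% intervals, which cover counting error only, did not overlap in any of these 6 pairs. Nor did they overlap for Fasl, at 20.2%, 21.7% and 15.9% with Gzmb against 9.37%, 13.2% and 7.39% without. The intervals did overlap for Ifng in all 3 libraries, at 6.21%, 7.09% and 4.04% with Gzmb against 4.08%, 5.19% and 3.69% without. Prf1 was level in vehicle IgG 2, at 4.66% against 4.56%, and higher with Gzmb in mavrilimumab 1 and 2, at 15.6% and 7.68% against 8.54% and 4.34%. Vehicle IgG 1 had 10 CD8 T cells with a Gzmb UMI at this depth, and the intervals of every gene compared overlapped there.

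NK and CD8 T cells differed in 3 members. All class differences were tested in 1 fit of edgeR's quasi-likelihood test over 21 sums (a class in a library) with library as a block and Benjamini-Hochberg adjustment over 11597 genes. Gzma was higher in NK cells by a log2 fold change of 3.91 ± 0.91 (SE, adjusted p = 0.00889) and Prf1 by 2.45 ± 0.37 (adjusted p = 0.000266), 2 of 9 members against 4.54% of all genes. Gzmk was lower by a log2 fold change of -5.06 ± 0.63 (adjusted p = 4.32e-05), 1 of 9 members against 5.11% of all genes. Nkg7 (0.17 ± 0.47), Fasl (0.01 ± 0.36) and Ifng (0.25 ± 0.47) had differences within 1 SE of 0. Without mavrilimumab 2 only the Gzmk call held (adjusted p = 0.0114), with Gzma at adjusted p = 0.0761 and Prf1 at 0.0898. The Gzma call was also lost without mavrilimumab 1 (adjusted p = 0.0553) and by DESeq2's Wald test (0.0772).

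γδ T cells were lower than CD8 T cells in 7 of 9 members, against 7.57% of all genes. The differences ran from a log2 fold change of -1.13 ± 0.29 for Ctsw (adjusted p = 0.0113) to -5.69 ± 0.57 for Gzmk (adjusted p = 1.24e-06), with Nkg7 at -2.53 ± 0.47 and Prf1 at -2.01 ± 0.40. Gzma (-0.53 ± 0.84) and Gzmb (-1.63 ± 0.60, adjusted p = 0.0752) did not pass. Without mavrilimumab 1 the Ifng call (-1.61 ± 0.47) was lost (adjusted p = 0.101), as it was with cells that met several definitions kept (adjusted p = 0.0754), which left 6 members called in each case.

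Other CD4 T cells were also lower than CD8 T cells in 7 of 9 members, against 3.07% of all genes. Gzmb had the widest gap at a log2 fold change of -3.95 ± 0.67 (adjusted p = 0.00136), followed by Gzmm, Nkg7 (-2.96 ± 0.48) and Prf1 (-2.66 ± 0.41). Ifng was the exception with a value near 0 (-0.13 ± 0.44), and Gzma (-1.85 ± 1.01) did not pass. Gzmm (-3.44 ± 0.68) lost its call without mavrilimumab 1 (adjusted p = 0.0741), and Gzmk (-1.98 ± 0.40) by DESeq2 (adjusted p = 0.0811). Treg cells differed from other CD4 T cells in 1 member, Gzmk, at a log2 fold change of -3.46 ± 0.68 (adjusted p = 0.0105), against 0.983% of all genes lower. Nkg7, Fasl and Ifng had values of -2.0, -1.85 and -2.29 with adjusted p between 0.0850 and 0.0889, and all 3 passed without vehicle IgG 2, which gave 28 Treg cells. Without mavrilimumab 2 no member passed (Gzmk adjusted p = 0.160). None passed either with cells of several definitions kept (Gzmk adjusted p = 0.0748), where the members' median went from -1.85 to 0.32. Gzmb had the opposite sign at 1.21 ± 0.73 (adjusted p = 0.5003). B cell markers were at 6454 CPM in Treg cells and 3507 CPM in other CD4 T cells of mavrilimumab 1, and at 111 to 448 CPM in the other libraries of these classes. Their part in the result was not tested.

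ILCs were lower than NK cells in 7 of 9 members, against 4.76% of all genes. Prf1 had the widest gap at a log2 fold change of -7.57 ± 0.68 (adjusted p = 1.49e-06) and Ctsw the narrowest at -2.62 ± 0.36 (adjusted p = 7.34e-05). Gzmk and Gzmm, near 0 in NK cells, did not pass. The 7 calls held without any single library, including mavrilimumab 1, where the ILC class goes against its label.

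**Figure D3:**
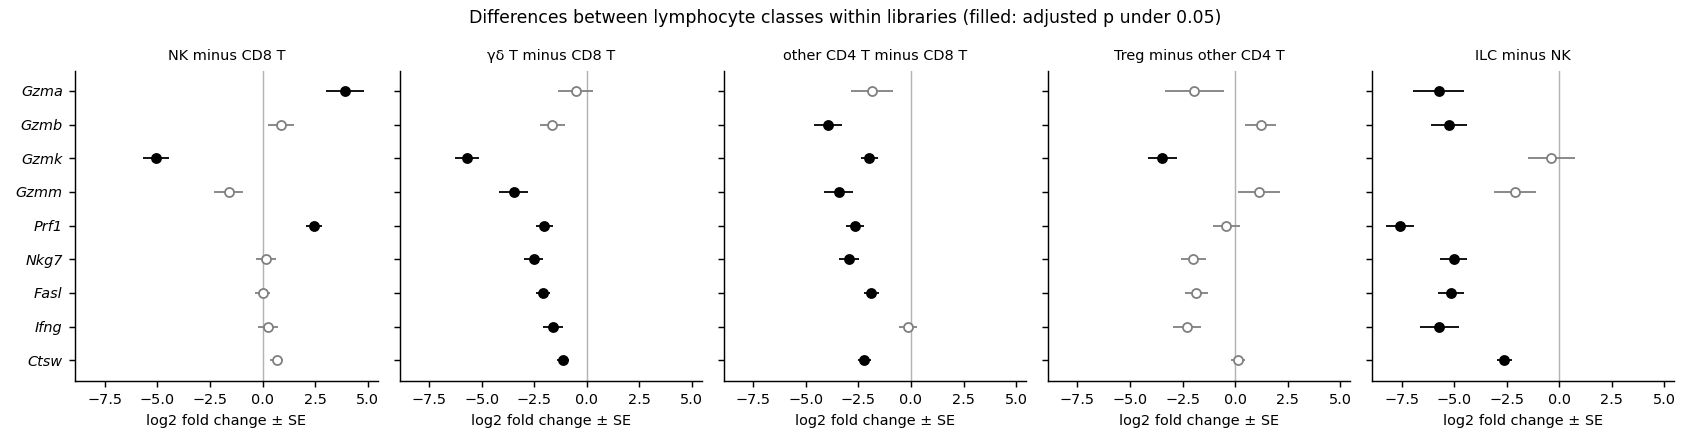
Log2 fold change ± SE (horizontal axis) of the 9 genes (rows) in the 5 class contrasts from 1 edgeR fit over 21 sums. Filled points have an adjusted p under 0.05. Gzmk lies to the left in the first 4 panels, at -5.06, -5.69, -1.98 and -3.46.

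Other genes of the pathway were read from 6 fixed lists (54 genes) in the same fit. Among regulators of the cytotoxic programme (12 tested), NK cells were higher than CD8 T cells in 4 (Eomes, Zeb2, Bhlhe40 and Nfil3) and lower in 1, with the list's median at 0.67 against -0.01 over all genes, of which 4.54% were called higher and 5.11% lower. Nfil3, a factor of NK development, was at 33.9 to 45.4 CPM in NK and 3.02 to 10.8 CPM in CD8 T cells (log2 fold change 2.19 ± 0.41). Tcf7, the memory and stem-like T cell factor, was lower in NK cells (-2.48 ± 0.63). Without mavrilimumab 2 neither call held (adjusted p = 0.220 for Nfil3 and 0.424 for Tcf7), and that of Tcf7 was also lost without vehicle IgG 2 (0.0680). γδ T cells were lower than CD8 T cells in 6 of the 12 regulators and higher in 1 (median -0.53 against -0.03), where 7.57% of all genes were called lower and 1001 of 11597 higher. Eomes, a T-box factor of killer cells, was at 2.51 to 19.1 CPM in γδ and 37.2 to 158 CPM in CD8 T cells (-3.03 ± 0.34). Eomes was also lower in other CD4 T cells than in CD8 T cells (-3.30 ± 0.33). Treg cells had more Prdm1, which encodes Blimp-1 (1.67 ± 0.33), and less Tcf7 (-2.76 ± 0.60) than other CD4 T cells. In all 1 of 12 regulators was higher and 2 lower (Eomes and Tcf7), where 0.983% of all genes were lower and 189 of 11597 higher. The Prdm1 and Tcf7 calls were lost without mavrilimumab 2 (adjusted p = 0.196 and 0.157), that of Tcf7 also without vehicle IgG 2 (0.0507) and that of Prdm1 after thinning (0.202). The Eomes call was lost without mavrilimumab 1 (0.443), with cells of several definitions kept (0.761) and after thinning (0.0773). Tbx21, which encodes T-bet, was at 139.9 to 255 CPM in NK cells and 0.139 to 29.0 CPM in ILCs (-6.62 ± 0.72).

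Of the other granzymes, only Gzmc had enough counts for the class fit. It was at 3263 to 9710 CPM in NK cells and 3.02 to 115 CPM in CD8 T cells (log2 fold change 6.65 ± 0.62, adjusted p = 2.57e-06), and at most 0.416 CPM in ILCs. Granzyme inhibitors, which protect the killer cell, were higher in NK than in CD8 T cells in 2 of 4 tested (Serpinb9 and Serpinb6b, list median 1.06 on the log2 scale). Beside the 4.54% of all genes higher and 5.11% lower, 1 of 10 genes for granule content and release differed (Cst7, a cathepsin inhibitor, higher). Of 8 death ligand, receptor and caspase genes, 1 was higher in NK cells (Tnfsf10, which encodes TRAIL) and 1 lower (Fas, at 0 to 4.15 CPM against 16.0 to 34.2 CPM, adjusted p = 0.126 without mavrilimumab 2). Lta, which encodes lymphotoxin, was higher in γδ than in CD8 T cells (2.08 ± 0.42). Both chains of the interferon-γ receptor, Ifngr1 and Ifngr2, were higher in γδ T cells, the latter at 39.9 to 68.6 CPM against 4.26 to 25.0 CPM in CD8 T cells.

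The question of the treatment comparison is whether the killing programme of tumour lymphocytes differed at sampling, after 1 dose against the GM-CSF receptor. In CD8 T cells 0 of 9 members passed edgeR's quasi-likelihood test between 2 mavrilimumab and 2 vehicle libraries, against 0.0% of all genes (0 of 12324). None had an unadjusted p under 0.05, against 517 of 12324 genes, and DESeq2 and limma-voom called none. All 9 fold changes were positive, from 0.33 ± 1.19 for Gzma to 1.15 ± 0.96 for Gzmb on the log2 scale, with adjusted p from 0.927 to 0.990. Nkg7 was at 1153 and 1719.7 CPM in vehicle IgG 1 and 2, against 2614 and 1863 CPM in mavrilimumab 1 and 2, and Ctsw at 519.6 and 771 against 1004 and 1024 CPM. Nkg7, Fasl and Ctsw were higher in both mavrilimumab libraries than in both vehicle libraries, 3 of 9 members against 14.1% of all genes. Leaving out 1 library turned the sign of Gzma, Gzmb, Gzmk, Gzmm or Prf1. The signs also changed when free RNA was subtracted, with far more subtracted in vehicle IgG 2 than in the other libraries. With free RNA subtracted, at an amount set from C1qa, a microglia gene, 8 of 9 values turned negative (-0.98 to 0.37). C1qa was at 61.0 CPM in CD8 T cells of vehicle IgG 2 and 70.3 CPM in its empty droplets, which gave an estimated free RNA share of 86.8%, against 0.751% to 9.81% in CD8 T cells of the other 3 libraries and 0% to 32.1% in the other classes of vehicle IgG 2. The subtraction moved the median of all genes from -0.02 to 0.48. Empty droplets of vehicle IgG 2 held Nkg7 at 86.1 CPM and Ctsw at 69.4 CPM, against 1719.7 and 771 CPM in its CD8 T cells. Whether the 86.8% is too high was not tested, and no direction is drawn from the subtracted values.

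In γδ T cells the 7 members tested had log2 fold changes for treatment of 1.19 to 3.67, and none passed. Gzmb was at 111 and 72.8 CPM in vehicle IgG 1 and 2, against 309 and 1335 CPM in mavrilimumab 1 and 2 (log2 fold change 3.27 ± 0.70, adjusted p = 0.387). Ifng was at 4.10 and 0.837 against 23.4 and 24.3 CPM (3.67 ± 0.65, adjusted p = 0.300), from 2, 1, 27 and 69 UMIs. Nkg7 was at 254 and 93.7 against 465 and 766 CPM (1.94 ± 0.48, adjusted p = 0.445). In edgeR 0 of the 7 members tested passed, against 0.0% of all genes. An unadjusted p under 0.05 was found for 6 of 7 members and for 760 of 9192 genes. These 7 were higher in both mavrilimumab libraries, against 17.4% of all genes, but Ifng, with 2 and 1 UMIs in the vehicle libraries, passed the low-count filter through its mavrilimumab counts, so the tally is no support for a difference. DESeq2 called 2 members (26 of 9192 genes) and limma-voom 0. Without vehicle IgG 1, which gave 29 γδ T cells, 3 passed (Nkg7 adjusted p = 0.0183, Ifng 0.0182, Fasl 0.0106), in a fit with 1 vehicle library whose spread comes from the mavrilimumab libraries alone. That fit called 739 of 10571 genes. The sum of the NK marker list moved with the result, at 226 and 97.9 CPM in vehicle IgG 1 and 2 and 403 and 925 CPM in mavrilimumab 1 and 2. Fcer1g, a gene of that list, was alone at 59.4 to 557 CPM in γδ T cells. Klra4 was at 0 in all 4 libraries and Klra8 in 3. Outside the list, the NK receptor genes Klra7 and Klra3 ran from 0 to 158 CPM and from 0 to 17.3 CPM in γδ T cells. The part of the list in the result was not tested.

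**Figure D4:**
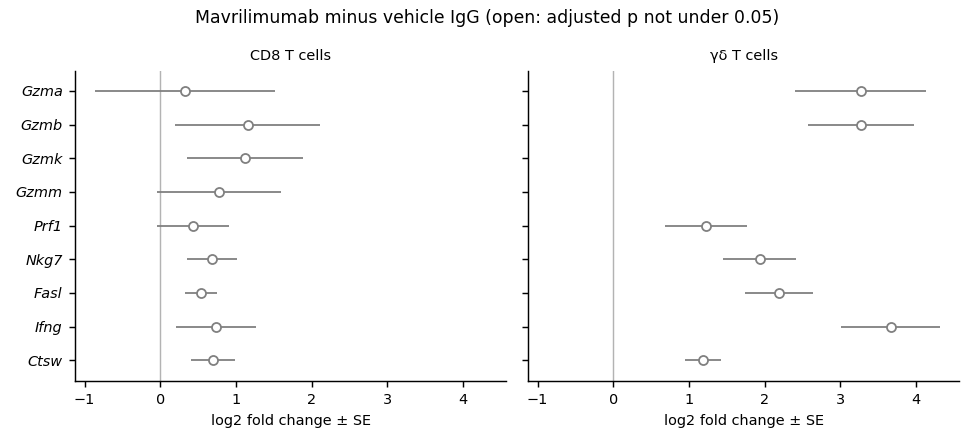
Log2 fold change ± SE (horizontal axis), mavrilimumab minus vehicle IgG, of the members tested in CD8 T cells (9) and γδ T cells (7), 2 libraries per group. All points are open because no adjusted p was under 0.05. All lie to the right of 0, in CD8 T cells between 0.33 and 1.15 and in γδ T cells between 1.19 and 3.67.

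In the other classes the treatment differences were mixed. In other CD4 T cells 0 of 8 members passed, against 0.0% of all genes. An unadjusted p under 0.05 was found for 3 of 8 members and for 313 of 10341 genes. Gzmb was at 5.72 and 36.0 CPM in vehicle IgG and 98.1 and 108 CPM in mavrilimumab libraries (log2 fold change 2.79 ± 0.76, adjusted p = 0.999), and 4 of 8 members were higher in both mavrilimumab libraries, against 11.9% of all genes. With free RNA subtracted the median of the members tested there went from 0.63 to -0.47, with 6 members left to test. Members with too few counts were not tested: Gzmm in any class but CD8 T cells, Gzmk in γδ T cells and ILCs, Prf1 in Treg cells and ILCs, and Ifng in ILCs. Treg cells, NK cells and ILCs have a single vehicle library, so the spread among vehicle libraries was not measured there. In Treg cells 0 of 7 passed, against 1.07% of all genes, and in NK cells 0 of 8, against 10.4%. The members' median log2 fold change was 3.36 in Treg cells (0.11 over all genes) and 0.39 in NK cells (-0.10 over all genes). In Treg cells of vehicle IgG 2, 4 members had 0 UMIs (Gzma, Gzmk, Prf1 and Fasl). Of these Gzma, Gzmk and Fasl were tested, having passed the low-count filter through their mavrilimumab counts. The Treg median was 1.12 over 3 members with libraries of at least 10 cells admitted. With free RNA subtracted it was 0.72 over 2 members, and no direction is drawn from it. Of the fixed lists, both other granzymes tested in NK cells (Gzmc and Gzmf) and Lta passed, against the single vehicle library, and no direction is drawn from them. No gene of the lists passed for treatment in CD8, other CD4 or γδ T cells. In ILCs 3 of 5 members passed (Gzma, Gzmb and Nkg7), against 5.65% of all genes, in a test whose spread comes from the 2 mavrilimumab libraries alone. No direction is drawn from it. The Gzma and Gzmb counts of ILCs sit in few cells, as given above, and 1 of the 2 mavrilimumab libraries goes against its label there. C1qa moved with treatment in ILCs, at 22.6 CPM in vehicle IgG 2 and 803 and 532 CPM in mavrilimumab 1 and 2, and its part in the result was not tested. No ILC member passed with called doublets removed, with libraries of at least 10 cells admitted, with free RNA subtracted or by limma-voom.

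Whether the treatment difference itself varied between classes was tested as an interaction against CD8 T cells. For Treg cells 0 of 9 members passed (0.0% of all genes), for other CD4 T cells 0 of 9 (0.00862%), for γδ T cells 0 of 9 (0.0%), for NK cells 0 of 9 (0.0172%) and for ILCs 0 of 9 (0.345%) by edgeR. The members at an unadjusted p under 0.05 numbered 1, 1, 5, 0 and 6 in that order, against 619, 377, 326, 352 and 920 of 11597 genes. The largest of the γδ values was that of Ifng, at 3.16 ± 0.89 on the log2 scale (adjusted p = 0.948).

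The share of CD8 T cells with a UMI of each member, at 1000 UMIs per cell, was compared in the same way. Gzmb was found in 14.7% and 29.2% of cells in vehicle IgG 1 and 2 and in 22.4% and 40.7% in mavrilimumab 1 and 2. Gzmk was found in 11.8% and 8.33% against 32.4% and 7.62%, so mavrilimumab 1 alone stood apart. Prf1 was at 0% (0 of 68 cells, of which 52.9% had a UMI before thinning) and 4.59% against 10.1% and 5.70%. Before thinning Prf1 was at 83.4 CPM in vehicle IgG 1, above the 55.1 CPM of mavrilimumab 2. Thinning was 1 random draw per cell and the spread between draws was not measured, so the 0% is not read as a lower level. Gzmm, Prf1 and Ctsw were higher in both mavrilimumab libraries, 3 of 9 members against 13.1% of all genes. Gzmm was at 0% and 0.624% against 2.39% and 0.658%, 3 of these 4 values below the 1.11% that microglia reached for a member, so its separation is not read as a difference. Their two-sided exact permutation p was 0.333, the smallest that 2 libraries against 2 allow. The members that stood apart depended on the depth. At 2000 UMIs per cell Prf1 was at 20.6% and 7.83% against 19.3% and 9.38%, and Ctsw at 47.1% and 73.2% against 82.4% and 71.0%, so both overlapped. The share of all genes that stood apart was not computed at this depth or without thinning, so the members that stood apart there are not read as a result. The median CD8 T cell had 2727 to 14679 UMIs before thinning.

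The last comparison asks whether CD8 T cells of expanded clones carry more of the set than cells whose receptor was seen once. A clone is a set of cells with the same α and β chains. Of 1623 CD8 T cells with a receptor in mavrilimumab 1, 658 were single and 671 belonged to 76 clones of more than 3 cells. In mavrilimumab 2 these were 1634, 1099 and 276 in 47 clones. Vehicle IgG 1 had 59 such cells and no clone of more than 3, so the comparison holds within the mavrilimumab libraries alone.

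Ifng was higher in expanded clones. It was at 43.4 and 33.1 CPM in single cells of mavrilimumab 1 and 2 and at 108 and 92.5 CPM in clones of over 10 cells. In clones of 4 to 10 cells it was at 43.6 CPM in mavrilimumab 1, level with single cells, and at 75.8 CPM in mavrilimumab 2. The clone size fit had 4 sums, an expanded and a single sum from each mavrilimumab library, so its SEs and p-values rest on few sums. For Ifng the log2 fold change between expanded and single cells was 1.08 ± 0.13 (edgeR with library as a block, adjusted p = 0.0488). It was the 1 member of 9 that passed, against 0.184% of all genes higher, and with RLE scaling factors in place of TMM none passed (Ifng adjusted p = 0.0674). Gzmk had the larger value, 1.69 ± 0.21, and just missed (adjusted p = 0.0511). Its levels stepped up from 269 to 431, 609 and 692 CPM over clones of 1, 2 to 3, 4 to 10 and over 10 cells in mavrilimumab 1, and from 47.7 to 128, 174 and 335 CPM in mavrilimumab 2. Nkg7 (0.58 ± 0.08, adjusted p = 0.0553) and Fasl (0.66 ± 0.11, adjusted p = 0.0932) were also higher in clones of over 10 cells in both libraries. So was Gzma, at 111 against 88.1 CPM in single cells of mavrilimumab 1 and 656 against 252 CPM in mavrilimumab 2. Its course was not steady, with 200 CPM at 4 to 10 cells in mavrilimumab 2. Prf1 was at 106 against 86.2 CPM in mavrilimumab 1 and 52.2 against 49.7 CPM in mavrilimumab 2.

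Gzmb did not follow. It went from 559 to 344 CPM between single cells and clones of over 10 cells in mavrilimumab 1 and from 1723 to 2297 CPM, by way of 3643 CPM at 2 to 3 cells, in mavrilimumab 2 (0.12 ± 0.29). Prf1 (0.22 ± 0.13), Ctsw (0.13 ± 0.14) and Gzmm (-0.27 ± 0.33) did not pass either. Single clones differed widely: among the 5 largest clones of each library Gzmb ran from 0 to 4661 CPM and Gzmk from 49.7 to 1167 CPM. The largest clone of mavrilimumab 1 held 149 of its 671 expanded cells, or 22.2%. With the largest clone of each library left out, 3 members passed (Gzmk, Nkg7 and Ifng), as did 146 of 10815 genes in all. DESeq2 called 65 of 10888 genes, among them Gzmk and Nkg7 and not Ifng (adjusted p = 0.0507). limma-voom called 3 members and 96 genes, and clones of 2 or more cells gave 0 members and 25 of 11558 genes.

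**Figure D5:**
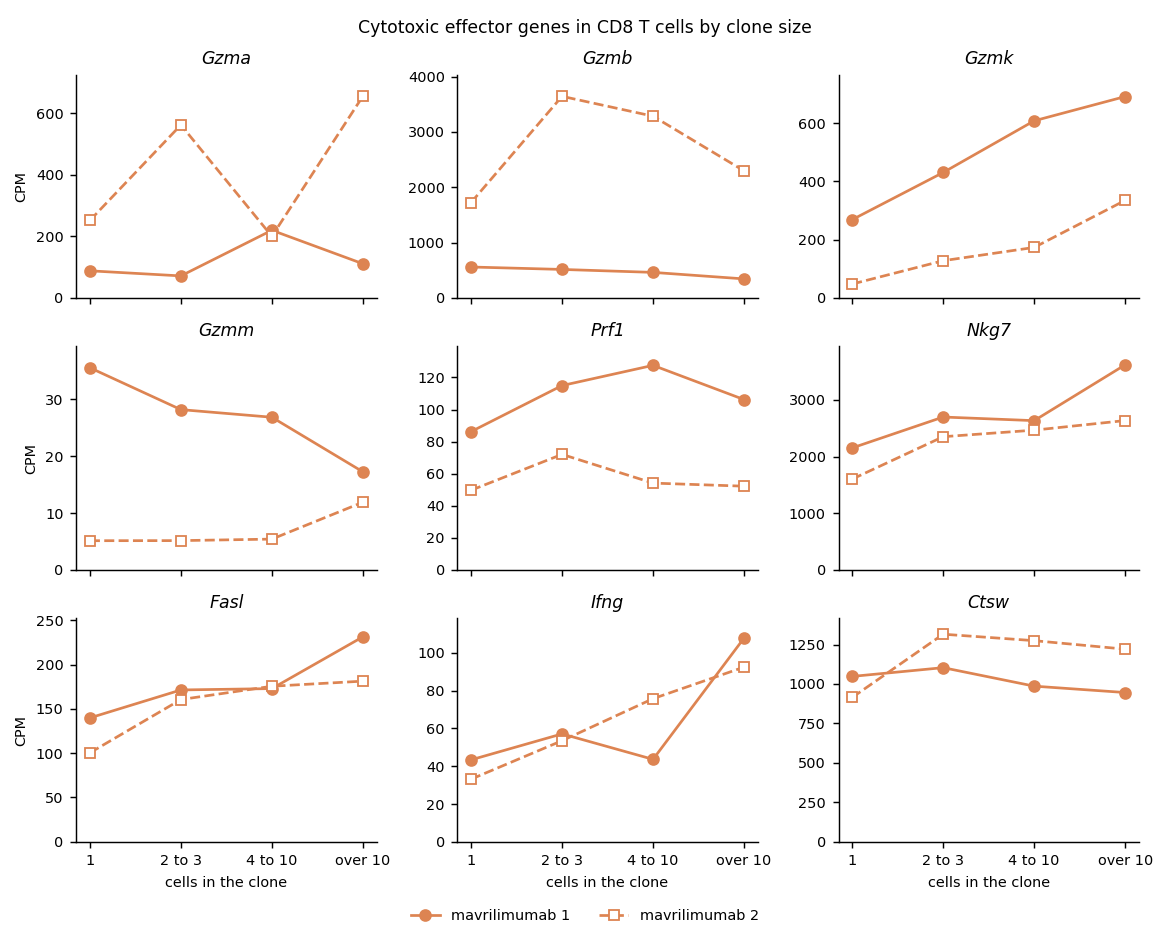
CPM (vertical axis, from 0) of the 9 genes in CD8 T cells by the number of cells in their clone (horizontal axis), 1 line per mavrilimumab library with no replicate error. Gzmk climbs over all 4 sizes in both libraries, to 692 and 335 CPM, whereas Gzmb in mavrilimumab 1 goes from 559 to 344 CPM.

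Levels of the members were also correlated with each other and with other genes. The sums used are those of the classes, so r carries the class differences given above. It was not computed within a class. Over the 21 sums, which share libraries and so are not independent, Pearson's r of log2(CPM + 1) was 0.96 between Nkg7 and Fasl and 0.93 between Prf1 and Nkg7, but 0.06 between Gzmb and Gzmk and 0.16 between Gzma and Gzmk. Among 7317 genes with a mean of at least 20 CPM, those most like Gzma were Klra3 (0.89) and Klra7 (0.86), which encode NK receptors of the Ly49 family, and a gene without a symbol (0.81). Gzmb was nearest to Fcer1g (0.85), Efhd2 and Serpinb6b, and Prf1 to Ppp3cc (0.93), Tbx21 (0.90) and Il12rb2 (0.89). Nkg7 was nearest to Ifitm10 (0.95), Samd3 and Ppp3cc, Fasl to Tbx21 (0.95), Ifitm10 and Baiap3, and Ctsw to Cst7 (0.94), Gas7 and Efhd2. Gzmk was nearest to Dop1b (0.87), Hdgfl3 and Cntrl, and Ifng to Dusp2 (0.87), Ms4a4b and Ubald2. Gzmm, the scarcest member, had no gene above 0.67 (Trbv12-1, Nudt16 and Dguok).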

How the data were processed

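Droplet 5′ single-cell RNA sequencing of 4 libraries of cells sorted from ependymomas after CD45 staining (2 vehicle IgG, 2 mavrilimumab) was analysed, with 3 T cell receptor files. The deposited matrices hold UMI counts per gene and barcode, not normalised, made by the authors with Cell Ranger on mm10 (version 9.0.1 in the matrix header, 7.1.0 in the submitters' processing notes). A cell was used if it had 1000 UMIs or more, 200 to 6000 genes and a mitochondrial share of 10% or less. Class rules asked for at least 1 Cd3e UMI (0 in NK cells and ILCs) and at least 2 UMIs of Cd8a with Cd8b1, of Trdc, of Ncr1 with Klrb1c, or of Gata3 with Rora, and cells meeting exactly 1 rule were used. The members and gene lists were chosen with earlier results of these data known. Counts were summed per library and class (at least 20 cells), and the library was the replicate.

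Sums were tested with edgeR 4.0.16 (TMM, low-count filter, quasi-likelihood, Benjamini-Hochberg), with DESeq2 1.42.0 and limma-voom 3.58.1 as alternatives, in R 4.3.3, and the scripts were tested on simulated data. Shares of cells were compared after thinning to 1000 UMIs by a two-sided exact permutation test. Other alternatives were RLE factors, no filter, each library left out, cells of several definitions kept, doublets called by Scrublet in scanpy 1.11.5 removed, cells with markers of other lineages removed, and free RNA subtracted. Doublets stayed in otherwise. Named genes were the 3 most like each member by correlation and, from the fixed lists, up to 2 per direction and contrast among those called. Depth is given in the report, and 3 counts set the limit behind a value of 0. Intervals and limits cover counting error only.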

Additional observations from a re-analysis of the deposited data

How the results depend on the processing

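Of 172 recomputed counts of members called, 137 stayed within 1.5 times the value given in the report and 35 did not. Of 1120 recomputed single-gene values, 1011 kept their direction and their side of the threshold, 40 passed it only in the alternative, 36 no longer passed it and 33 changed sign. The cause was not tested in any of these.

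For treatment, testing without a low-count filter gave 2 members in Treg cells, 2 in other CD4 T cells and 6 in γδ T cells, where the report has 0. In γδ T cells DESeq2 gave 2 and leaving out a library 0 to 3 (3 without vehicle IgG 1). In NK cells the count moved with limma-voom, in a fit with a single vehicle library. The 3 ILC calls became 7 with cells of several definitions kept and 0 by limma-voom, with doublets removed, with at least 10 cells and with free RNA subtracted. For the interaction, no filter gave 2 in other CD4 T cells, 5 in γδ T cells and 7 in ILCs, and leaving out a library 0 to 1 in ILCs (1 without vehicle IgG 1 or mavrilimumab 2).

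For Treg against other CD4 T cells the 1 call became 4 without a filter, 2 by DESeq2, 3 by limma-voom, 2 after thinning, 0 with cells of several definitions kept, and 0 to 4 when a library was left out. For NK against CD8 T cells leaving out a library gave 1 to 3. The 1 clone call became 0 with RLE factors, 5 without a filter, 2 by DESeq2, 3 by limma-voom, 0 for clones of 2 or more cells, 5 after thinning and 3 without the largest clones, an alternative chosen after seeing the data. The 3 members whose shares stood apart became 5 without thinning and 3 to 8 when a library was left out.

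In CD8 T cells the treatment value of Gzma changed sign to -0.18 with doublets removed. That alternative removed 21.4% of the cells kept in vehicle IgG 2, against 0.813% in vehicle IgG 1. In mavrilimumab 1 and 2 it removed 5.13% and 4.39%. With free RNA subtracted the values were -0.98 for Gzma, -0.0352 for Gzmb, -0.0127 for Gzmm, -0.20 for Prf1, -0.33 for Nkg7, -0.34 for Fasl, -0.37 for Ifng and -0.28 for Ctsw. That subtraction used an estimated share of 86.8% in vehicle IgG 2, and no direction is drawn from it. Leaving out a library gave -0.58 to 3.30 for Gzma, -0.34 to 2.39 for Gzmb, -0.26 to 1.83 for Gzmk, -0.60 to 1.47 for Gzmm and -0.0462 to 1.08 for Prf1, and for the thinned shares -0.51 to 3.23 points for Gzma and -2.43 to 22.4 points for Gzmk. Between NK and CD8 T cells Fasl was at -0.0647 without a filter, -0.0166 with cells of several definitions and -0.0381 with doublets removed. Leaving out a library gave -0.00778 to 0.39 for Nkg7 and -0.0616 to 0.11 for Fasl there, -1.12 to 0.0318 for Gzma in γδ against CD8 T cells, -0.53 to 0.16 for Ifng in other CD4 against CD8 T cells, -0.51 to 0.29 for Ctsw in Treg against other CD4 T cells and -3.19 to 1.76 for Gzmk in ILCs against NK cells. Ifng in other CD4 against CD8 T cells was at 0.13 by DESeq2, Gzma and Prf1 in Treg against other CD4 T cells at 1.40 and 0.32 with cells of several definitions, and Gzmk in ILCs against NK cells at 0.19 with doublets removed. None of the values in this paragraph had passed the test.

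Replicate numbers are shared by 2 pairs of libraries, too few to show a pairing: same-numbered libraries deviated together in CD8 T cells (r = 0.46 across 7326 genes), other CD4 T cells (0.27) and γδ T cells (0.21). With the replicate block 0 members passed in each of the 3 classes, as without it. Leaving out a library was not run for treatment in Treg cells, NK cells and ILCs or for clone size, nor was a block in the former, because no residual degrees of freedom remained.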

Other observations

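The precision is set by 2 expression libraries per treatment, 1 vehicle library in 3 classes, and small classes: 20 NK cells and 40 ILCs in mavrilimumab 1, 28 Treg cells in vehicle IgG 2 and 29 γδ T cells in vehicle IgG 1. Pooled tumours hide the spread between mice. Treatment directions follow the expression labels, and the names inside the receptor files give the other treatment.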
